A study of Mus musculus with 15 samples.

Results

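Transcripts of 10 genes of insulin, FoxO and mTOR nutrient signalling were followed through the tissues of mice on 3 diets. The genes are Insr, Irs1, Irs2, Foxo1, Foxo3, Ddit4, Sesn1, Eif4ebp1, Trib3 and Txnip, chosen by symbol. Each matched 1 locus of the deposited table, 10 of the 23589 loci that carry a gene name and of 33603 loci in all, and all 10 had counts in every library. Male C57BL/6 mice ate freely (AL, ad libitum), were held to 60% of that intake for 1 month from 4 months of age (DR, dietary restriction), or went back to free feeding for 2 months after such a month of DR (DR-AL). Liver, epididymal fat, colon mucosa, hypothalamus and hippocampus were taken, and RNA of 5 mice was pooled to 1 library per tissue and diet, which made 15 libraries. Tissue was taken at 5 months from the AL and DR groups and at 7 months from the DR-AL group, so that refeeding and age cannot be told apart. The study's question was whether changes made by a short spell of DR outlast it.

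Insulin binds its receptor at the cell surface, and the receptor phosphorylates adaptor proteins that recruit phosphatidylinositol 3-kinase and so activate Akt. Akt keeps the FoxO transcription factors out of the nucleus and activates mTORC1, the kinase complex that promotes protein synthesis when insulin and amino acids are plentiful. In scarcity FoxO factors return to the nucleus and raise genes that include Irs2 and Insr themselves, while Ddit4, sestrins and unphosphorylated Eif4ebp1 hold back mTORC1 or the translation it drives.

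Levels are given as counts scaled to a total of 1000000 on named loci (CPM), and each value is 1 library. A member was called changed between 2 libraries of a tissue when the Z test of the study's methods, which takes the square roots of counts and assumes counting error only, gave an adjusted p under 0.05 over all genes of the tissue and the higher library exceeded the lower by at least 25%. With 1 library per tissue and diet the test compares those libraries, not the diets, and it holds no spread between mice. Intervals in brackets are 95% counting intervals of the log2 fold change. In bulk tissue, fewer cells of a type and less RNA per cell cannot be told apart.

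Depth ran from 21767088 to 40500130 counts per library. The liver, colon epithelium, adipocyte and neuron markers were high in their own tissues, but the fat libraries differed in other tissue. Of 10 liver markers, 9 had counts in AL fat, with a median level of 12.2% of that in AL liver (8.16% to 29.8%). The same median was 0.134% in DR fat and 0.0180% in DR-AL fat. Alb read 0 in every library, liver included. Markers of testis germ cells, 8 of 8 with counts, summed to 4.84, 668 and 3315 CPM in AL, DR and DR-AL fat. Markers of the epididymis summed to 918, 3327 and 5284 CPM in the same order, with Lcn9, Lcn10, Cst8 and Cst11 at 0 in AL fat. Crisp1 (22172, 63971 and 125400 counts), Adam7, Cst8 and Rnase9 rose in that order. Lcn5, Lcn8 (2, 1003 and 5 counts), Lcn9, Lcn10, Cst11 and Rnase10 were highest in DR fat. Lcn9 and Lcn10 were at 0 in DR-AL fat as well. Adipocyte markers, 10 of 10 with counts, summed to 52817, 40567 and 31928 CPM in that order. Every fat comparison is therefore given with these values in view, and counts of calls are also given without fat.

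**Figure D1:**
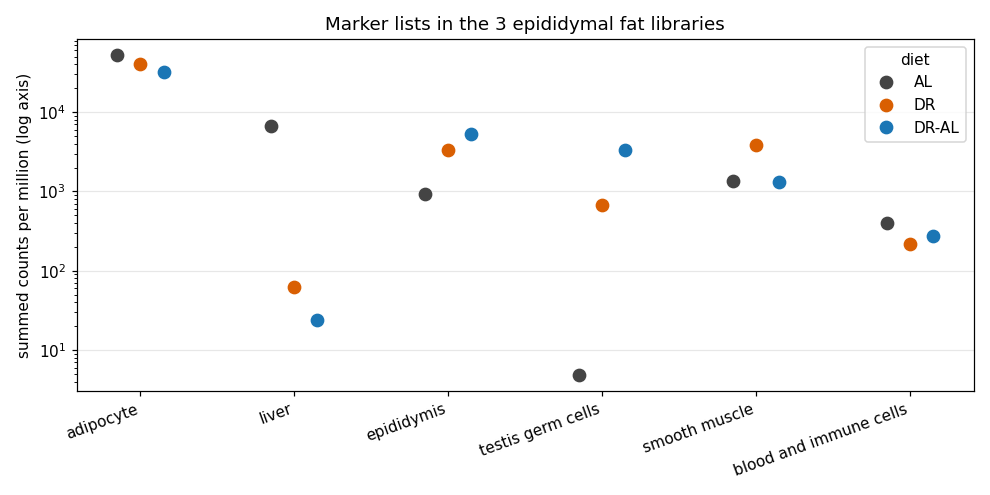
Summed CPM (vertical log axis) of 6 marker lists (horizontal axis) in the 3 epididymal fat libraries, 1 point per diet. Liver markers were at 6778 CPM in AL fat against 62.3 and 24.1 CPM in the others, while testis germ cell markers were lowest in AL fat.

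The sequence before Txnip is shown because Txnip was the member with the highest counts and its promoter is known to respond to glucose and to FoxO factors. In the 250 bases upstream of its RefSeq start (GRCm38.p6, chr3:96557707-96557956, plus strand), capitals mark a FoxO core (TGTTTAC or its reverse complement) 121 bases and a carbohydrate response element 85 bases before the start. The element consists of a pair of parts spelled CNCGNG, N being any base, with 5 bases between them, and its letters stand at chr3:96557872-96557888.
Txnip: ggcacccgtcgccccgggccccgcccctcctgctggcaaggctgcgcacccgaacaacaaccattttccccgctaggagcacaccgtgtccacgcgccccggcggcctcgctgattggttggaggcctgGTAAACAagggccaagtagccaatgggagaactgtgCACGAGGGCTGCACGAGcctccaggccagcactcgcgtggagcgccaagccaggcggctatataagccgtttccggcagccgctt
The E-boxes (CACGTG) before Irs1 and Irs2, with the bases that follow them, are shown because these related adaptors both hold the site near the start. They lie 115 bases before the RefSeq start of Irs1 (chr1:82291525-82291554, minus strand) and 44 bases before that of Irs2 (chr8:11008944-11008973, minus strand), with the E-box in capitals.
Irs1: CACGTGttttgctcctctggagtgagacgg
Irs2: CACGTGttgttttgctcttagttcagtcac
Searched on both strands in windows of 250 bases before and 50 after the start, the FoxO core was in 3.65% of 32851 RefSeq windows, the E-box in 7.15% and the carbohydrate response element in 1.39%. An ATF4 and C/EBP element spelled TGATGNAA was in 3.97%, and Trib3, a target of ATF4, held it as TTACATCA 14 bases after its RefSeq start, at chr2:152344039-152344046. For Irs1, Irs2 and Trib3 the RefSeq start lies upstream of the GENCODE span given for the gene below. A FoxO core also lay 22 bases after 1 of the Sesn1 starts. The windows of Foxo1, Foxo3 and Ddit4 held none of these letters. Windows were read for 8 of the 10 members, Insr and Eif4ebp1 being the others. A match describes letters and is no evidence of binding.

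**Figure D2:**
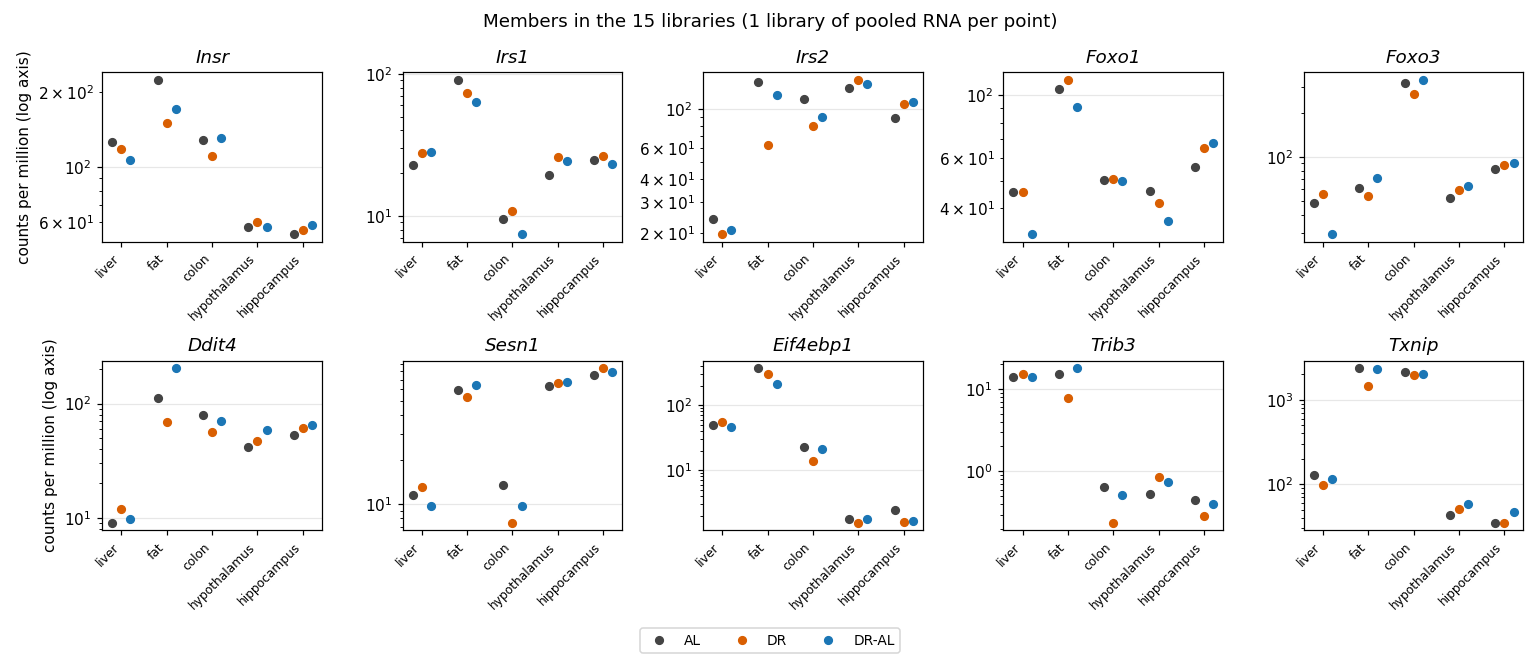
CPM (vertical log axis, its own range in each panel) of the 10 members in 5 tissues (horizontal axis), with 1 point per library coloured by diet. Most members differed more between tissues than between diets, with Eif4ebp1, Txnip and Trib3 spread furthest over tissues.

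Insr encodes the insulin receptor (GRCm38 chr8:3122061-3279617, minus strand). It stood at 225, 150 and 171 CPM in AL, DR and DR-AL fat, at 129, 111 and 130 CPM in colon and at 126, 119 and 107 CPM in liver. In hypothalamus it stood at 57.3, 60.3 and 57.2 CPM and in hippocampus at 53.8, 55.8 and 58.3 CPM. Fat was above every other tissue, colon and liver overlapped, and the pair of brain regions overlapped below them. Insr was lower in DR fat than in AL fat (log2 -0.58, -0.65 to -0.52) and lower in DR-AL fat than in AL fat (log2 -0.39, -0.45 to -0.34). No call was made for Insr outside fat in any of the comparisons, where its largest log2 difference was 0.24 in size.

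Irs1, an adaptor that carries much of the insulin signal in fat and muscle, lies at chr1:82233101-82291416, minus strand. Its levels in AL, DR and DR-AL were 91.0, 73.4 and 63.2 CPM in fat, 22.8, 27.6 and 28.1 CPM in liver and 24.7, 26.4 and 23.3 CPM in hippocampus. They were 19.4, 25.9 and 24.5 CPM in hypothalamus and 9.49, 10.8 and 7.47 CPM in colon. Fat stood apart at the top and colon at the bottom, and the other tissues overlapped. Irs1 rose in the hypothalamus under DR (log2 0.41, 0.26 to 0.57) and was also higher there in DR-AL than in AL (log2 0.33, 0.18 to 0.49). It was lower in DR-AL than in AL in fat (log2 -0.53) and in colon (log2 -0.35, -0.63 to -0.07, on 187 against 252 counts), and lower in DR-AL than in DR in colon (log2 -0.53).

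Irs2, the adaptor with a leading part in liver and beta cells and a FoxO target, lies at chr8:10984681-11008458, minus strand. In the order AL, DR and DR-AL it read 130, 146 and 137 CPM in hypothalamus, 140, 62.7 and 120 CPM in fat and 88.5, 106 and 110 CPM in hippocampus. In colon it read 114, 80.4 and 90.1 CPM and in liver 23.8, 19.8 and 20.7 CPM. Liver lay below the other tissues, each of which overlapped the next in the order of levels. The DR fat library was the lowest of the 12 outside liver. In fat Irs2 was 2.24-fold lower under DR (log2 -1.16, -1.25 to -1.07), and 1.91-fold higher in DR-AL than in DR, which left it uncalled between DR-AL and AL (log2 -0.23). In colon it fell under DR (log2 -0.50, -0.58 to -0.43) and was still lower in DR-AL than in AL (log2 -0.34, -0.42 to -0.26).

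Foxo1 is the FoxO factor that drives glucose production genes in liver and lies at chr3:52268336-52353221, plus strand. Levels in AL, DR and DR-AL were 105, 113 and 90.7 CPM in fat, 55.8, 65.4 and 67.9 CPM in hippocampus and 50.4, 50.8 and 50.1 CPM in colon. They were 45.6, 45.6 and 32.5 CPM in liver and 46.1, 41.6 and 36.0 CPM in hypothalamus. The colon values spanned less than 1 CPM, and liver and hypothalamus overlapped at the bottom. Foxo1 was not called between DR and AL in any of the 5 tissues. It was lower in DR-AL liver than in AL liver (log2 -0.49, -0.62 to -0.35) and than in DR liver (log2 -0.49, -0.62 to -0.35). In the hypothalamus it was lower in DR-AL than in AL (log2 -0.36, -0.47 to -0.24), and in fat it was lower in DR-AL than in DR by little more than the 25% required (log2 -0.32).

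Foxo3, the FoxO factor tied to stress resistance and atrophy programmes, lies at chr10:42181841-42276755, minus strand. It stood at 319, 268 and 338 CPM in AL, DR and DR-AL colon, at 81.7, 88.0 and 90.8 CPM in hippocampus and at 61.4, 53.8 and 71.2 CPM in fat. In hypothalamus it stood at 52.1, 59.6 and 63.0 CPM and in liver at 48.4, 55.5 and 29.5 CPM. Colon was far above the rest, with a mean 6.95-fold that of liver. The DR-AL liver library was the lowest of all 15. Foxo3 was lower in DR-AL liver than in AL liver (log2 -0.71, -0.85 to -0.58) and than in DR liver (log2 -0.91, -1.04 to -0.78). It was higher in DR-AL than in DR in fat (log2 0.41) and in colon (log2 0.33), and it was not called between DR and AL in any tissue.

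Ddit4, also called Redd1, holds back mTORC1 through the TSC complex and responds to glucocorticoids, hypoxia and starvation. The gene is short, at chr10:59949669-59951834, minus strand. Levels in AL, DR and DR-AL were 111, 68.6 and 203 CPM in fat, 78.8, 56.6 and 69.9 CPM in colon and 53.4, 60.5 and 64.3 CPM in hippocampus. They were 41.3, 47.3 and 58.8 CPM in hypothalamus and 9.06, 12.04 and 9.76 CPM in liver. Liver stood below the other 4 tissues, which overlapped in a chain. Under DR Ddit4 fell in fat (log2 -0.70, -0.79 to -0.61) and in colon (log2 -0.48, -0.57 to -0.39) and rose in liver (log2 0.41, 0.15 to 0.67), there on 262 against 224 counts. The liver call was lost with DESeq size factors in place of totals (log2 0.32), and the value was 0.18 in FPKM and 0.21 in FPKM centred on the median gene. The DR-AL fat library was the highest of all, 1.82-fold above AL (log2 0.87, 0.80 to 0.93) and 2.96-fold above DR. In the hypothalamus Ddit4 was higher in DR-AL than in AL (log2 0.51, 0.40 to 0.61).

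Sesn1, a leucine-sensing sestrin upstream of mTORC1 and a target of p53 and FoxO factors, lies at chr10:41809935-41908424, plus strand. It read 74.9, 83.5 and 78.3 CPM in AL, DR and DR-AL hippocampus, 63.7, 66.0 and 67.5 CPM in hypothalamus and 59.4, 53.4 and 64.0 CPM in fat. In liver it read 11.6, 13.0 and 9.72 CPM and in colon 13.5, 7.45 and 9.62 CPM. Hippocampus stood above hypothalamus, hypothalamus and fat overlapped, and liver and colon, which also overlapped, lay far below. Sesn1 fell in colon under DR (log2 -0.85, -1.09 to -0.62, on 249 against 358 counts), and DR-AL colon lay between the other libraries, above DR (log2 0.37) and below AL (log2 -0.49). In liver it was lower in DR-AL than in DR (log2 -0.42, -0.68 to -0.17).

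Eif4ebp1 encodes 4E-BP1, which binds the cap-binding factor eIF4E until mTORC1 phosphorylates it, and lies at chr8:27260329-27276674, plus strand. It read 369, 302 and 214 CPM in AL, DR and DR-AL fat, 50.3, 54.3 and 46.5 CPM in liver and 22.6, 13.9 and 21.04 CPM in colon. In both brain regions it stayed between 1.56 and 2.44 CPM. The mean of fat was 172-fold that of hypothalamus, and the order fat, liver, colon, brain held without overlap down to the brain regions, which overlapped. In colon Eif4ebp1 fell under DR (log2 -0.71, -0.89 to -0.53) and was higher again in DR-AL than in DR (log2 0.60, 0.42 to 0.79). In fat the DR-AL library was below AL (log2 -0.78, -0.83 to -0.74) and below DR (log2 -0.49), while DR against AL was not called (log2 -0.29).

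Trib3, a pseudokinase that binds Akt and is induced by ATF4, lies at chr2:152337422-152344032, minus strand. It read 13.9, 15.2 and 13.9 CPM in AL, DR and DR-AL liver and 15.1, 7.67 and 17.7 CPM in fat. In colon and both brain regions it stayed between 0.24 and 0.86 CPM. Liver and fat overlapped, and colon overlapped each of the brain regions at the low end. In fat Trib3 was 1.97-fold lower in DR than in AL (log2 -0.98, -1.24 to -0.72) and 2.30-fold higher in DR-AL than in DR (log2 1.20, 0.95 to 1.46). A call of lower in DR colon rested on 8 against 17 counts (log2 -1.36, -2.84 to -0.13).

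Txnip, an arrestin-family protein that binds thioredoxin, limits glucose uptake and is raised by glucose, lies at chr3:96557957-96561883, plus strand. It stood at 2359, 1447 and 2318 CPM in AL, DR and DR-AL fat and at 2113, 1954 and 2047 CPM in colon. Levels were 130, 98.7 and 117 CPM in liver, 43.0, 51.6 and 59.2 CPM in hypothalamus and 35.2, 35.3 and 46.7 CPM in hippocampus. Fat and colon overlapped, liver lay far below them, and the brain regions, overlapping, lay lowest. Under DR Txnip fell in fat (log2 -0.71, -0.72 to -0.69) and in liver (log2 -0.40, -0.48 to -0.32). DR-AL fat was above DR fat (log2 0.68) and not called against AL (log2 -0.03). In DR-AL against AL it was higher in hypothalamus (log2 0.46, 0.36 to 0.56) and in hippocampus (log2 0.41, 0.30 to 0.52). Scaled by totals, Txnip in the DR-AL library was above its DR level in all 5 tissues, though in colon by log2 0.07 without a call. In FPKM its fat value turned to -0.18 (0.40 when centred on the median gene).

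Set per length, as FPKM within a library, the leading member differed by tissue. Eif4ebp1 was highest in the 3 liver libraries, at 114, 107 and 106 FPKM for AL, DR and DR-AL. Txnip led in fat (620, 226 and 199 FPKM) and in colon (861, 784 and 871 FPKM). In all 6 brain libraries Ddit4 ranked highest and Sesn1 next, at 30.6 and 22.5 FPKM in AL hippocampus for example, and Trib3 was lowest, as it was in fat and colon. In fat the FPKM of all genes together fell as well, by a median log2 of -0.45 in DR and -1.18 in DR-AL against AL.

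**Figure D3:**
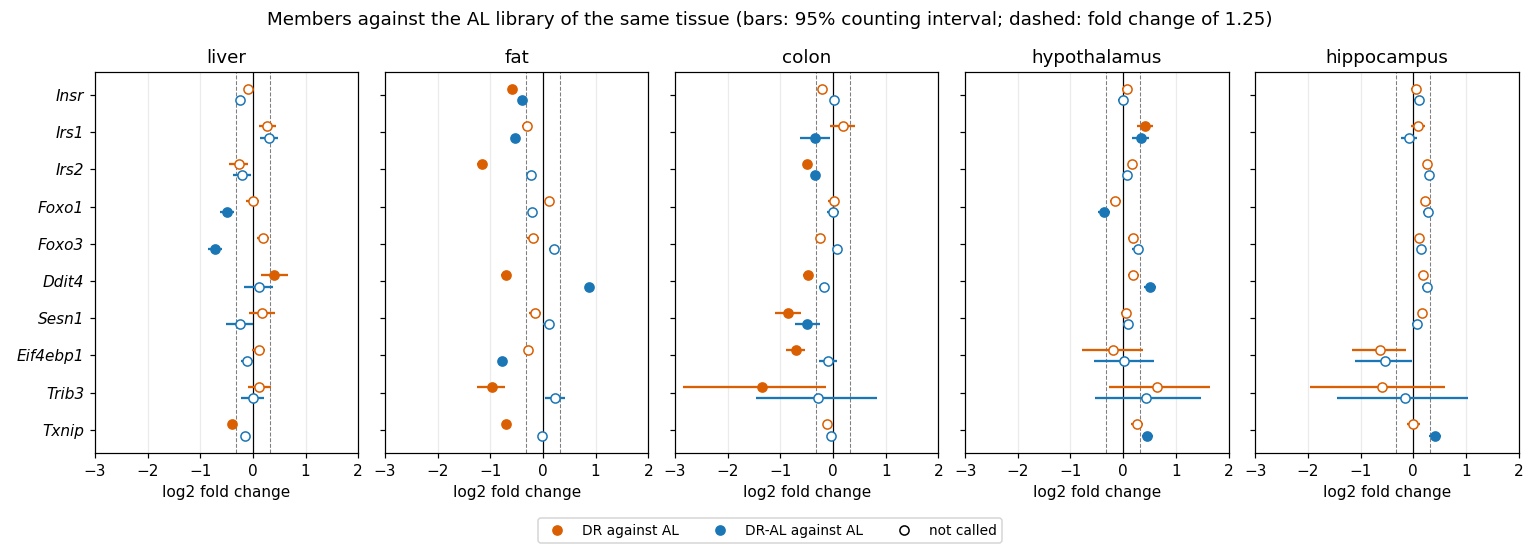
Log2 fold change (horizontal axis) of the 10 members (vertical axis) in DR and DR-AL against the AL library of each tissue, with 95% counting intervals as bars and dashed lines where 1 library exceeds the other by 25%. Filled points were called. Under DR the called points of fat and colon all lie left of 0, and that of the hypothalamus right of it.

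In DR against AL, 13 of the 50 gene and tissue pairs were called, 2 higher and 11 lower. In fat 5 members were lower (Insr, Irs2, Ddit4, Trib3 and Txnip) and none higher, where 10.4% of all 20382 genes tested were lower and 35.2% higher. In colon 5 members were lower (Irs2, Ddit4, Sesn1, Eif4ebp1 and Trib3) and none higher, where 10.6% of genes were lower and 9.04% higher. Liver had 1 higher (Ddit4, background 18.0%) and 1 lower (Txnip, background 9.92%). Hypothalamus had 1 higher (Irs1, background 4.33%) and none lower (2.72%), and hippocampus had none higher (1.36%) and none lower (2.67%). The median log2 fold change of the members was -0.45 in fat and -0.36 in colon, against 0.24 and 0.01 for all genes whose mean count reached 10. It was 0.12 in liver, 0.18 in hypothalamus and 0.10 in hippocampus, against 0.08, 0.01 and -0.01. Irs2, Ddit4 and Trib3 were lower in both fat and colon, and in the brain regions Irs2 (log2 0.16 and 0.26) and Ddit4 (log2 0.20 and 0.18) were above AL without a call. Trib3 was uncalled there as well, at log2 0.65 in hypothalamus on 28 against 16 counts and at -0.60 in hippocampus on 9 against 18 counts. Whether the tissues differ from one another was not tested, since each has 1 library per diet.

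In DR-AL against AL, which shares its AL libraries with the comparison above, 14 of 50 pairs were called, 5 higher and 9 lower. Liver had none higher and 2 lower (Foxo1 and Foxo3), against 15% and 15.8% of all genes. Fat had 1 higher (Ddit4) and 3 lower (Insr, Irs1 and Eif4ebp1), against 46.0% and 11.9%. Colon had none higher and 3 lower (Irs1, Irs2 and Sesn1), against 5.83% and 8.50%. Hypothalamus had 3 higher (Irs1, Ddit4 and Txnip) and 1 lower (Foxo1), against 6.06% and 9.02%. Hippocampus had 1 higher (Txnip) and none lower, against 3.99% and 2.16%. Side by side with their DR values, Irs2 in colon was at log2 -0.50 in DR and -0.34 in DR-AL, Sesn1 in colon at -0.85 and -0.49, Irs1 in hypothalamus at 0.41 and 0.33, and Insr in fat at -0.58 and -0.39. For Irs2 in fat the values were -1.16 and -0.23, and for Ddit4 in fat -0.70 and 0.87. The other pairs called in DR against AL were, like Irs2 in fat, not called in DR-AL against AL. In colon these were Eif4ebp1 (-0.71 and -0.10), Ddit4 (-0.48 and -0.17) and Trib3 (-1.36 and -0.29). In fat they were Trib3 (-0.98 and 0.22) and Txnip (-0.71 and -0.03), and in liver Txnip (-0.40 and -0.16) and Ddit4 (0.41 and 0.11).

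In DR-AL against DR, 15 of 50 pairs were called, 9 higher and 6 lower. Fat had 5 higher (Irs2, Foxo3, Ddit4, Trib3 and Txnip) and 2 lower (Foxo1 and Eif4ebp1), against 38.3% and 13.3% of all genes. Colon had 3 higher (Foxo3, Sesn1 and Eif4ebp1) and 1 lower (Irs1), against 6.78% and 7.67%. Liver had none higher and 3 lower (Foxo1, Foxo3 and Sesn1), against 16.9% and 24.0%. Hippocampus had 1 higher (Txnip) and none lower, against 3.63% and 1.26%, and hypothalamus had neither, against 2.82% and 6.80%.

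The calls took counting error alone as the spread. With a coefficient of variation of 0.1 between libraries added, 7 of the 13 calls for DR against AL stayed, which were the 5 in fat and those of Sesn1 and Eif4ebp1 in colon, and with the dispersion estimated over the libraries of a tissue none stayed. Outside fat, 8 of the 13 calls for DR against AL, 10 of 14 for DR-AL against AL and 8 of 15 for DR-AL against DR were made.

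The calls and their directions also moved with the scaling. With size factors 1 member pair was higher and 16 lower in DR against AL, and in FPKM 9 were higher and 10 lower in DR-AL against DR (7 and 9 with a pseudocount of 1, 10 and 7 when centred on the median gene). Size factors ended 5 calls, which were Ddit4 in liver for DR against AL, Irs1 (log2 -0.33) and Irs2 (-0.32) in colon for DR-AL against AL, and Sesn1 in liver (-0.31) and Foxo3 in fat (0.26) for DR-AL against DR. They added 13 calls, among them Irs2 in liver for DR against AL (log2 -0.36). The share of higher genes among all called genes moved as well. In liver it was 64.5% for DR against AL and became 50.6% when DESeq size factors replaced totals. For DR-AL against DR in fat it was 74.3%, 62.9% with size factors and 23.1% in FPKM. In FPKM it moved from 40.7% to 50.8% in colon and from 40.2% to 50.3% in hypothalamus for DR-AL against AL. For DR-AL against DR it moved from 46.9% to 58.3% in colon, from 29.3% to 48.0% in hypothalamus and from 74.3% to 61.9% in hippocampus, and for DR against AL from 33.8% to 62.2% in hippocampus.

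The fat values depend on what they are set against, since the median of all genes moved by log2 0.24 in DR and 0.34 in DR-AL against AL when counts were divided by totals. Of all called genes 77.3% were higher in DR fat and 79.5% in DR-AL fat than in AL fat, which became 61.2% and 57.5% with DESeq size factors and 26.5% and 22.3% in FPKM. Relative to that median, the fat changes under DR were -1.40 for Irs2, -1.22 for Trib3, -0.95 for Txnip, -0.94 for Ddit4 and -0.83 for Insr. Relative to the sum of adipocyte markers, which was itself lower by log2 -0.38 in DR fat, they were -0.78, -0.60, -0.32, -0.32 and -0.20. Ddit4 in DR-AL against AL was at 0.53 relative to the median gene and at 1.59 relative to the adipocyte sum, while in FPKM, where the median gene moved by -1.18, it was at -0.76 and, centred on that median, at 0.42. Relative to the adipocyte sum, Insr and Irs1 in DR-AL fat turned to 0.33 and 0.20, and Eif4ebp1 was at -0.06. If the liver RNA in AL fat carried members at their liver levels, it would account for 0.672% (Txnip) to 11.2% (Trib3) of their AL fat levels, and for 2.07% of Irs2. Smooth muscle markers, 7 of 7 with counts, stood at 1338, 3880 and 1303 CPM in AL, DR and DR-AL fat, and the part of male tract and muscle tissue in the members' changes was not tested.

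In colon the summed epithelial markers, 9 of 9 with counts, were 32023, 31885 and 32015 CPM in AL, DR and DR-AL. Smooth muscle markers there summed to 69.1, 92.3 and 37.5 CPM, and blood and immune markers to 24.4, 10.3 and 29.0 CPM. Adipocyte markers in colon, with counts for 10, 9 and 10 of 10, summed to 317, 214 and 275 CPM, with Adipoq at 71, 22 and 64 counts and Plin1 at 28, 4 and 38. The blood and adipocyte sums were lowest in the DR library, as were Irs2, Ddit4, Sesn1, Eif4ebp1 and Trib3, and their part in those values was not tested. In hypothalamus, neuron markers summed to 3264, 3641 and 4059 CPM, hypothalamic markers to 1133, 974 and 887 CPM and telencephalic markers to 204, 171 and 146 CPM. Blood and immune markers there, 7 of 7 with counts, summed to 93.6, 51.4 and 35.5 CPM, smooth muscle markers to 34.8, 82.9 and 47.0 CPM, and colon epithelium markers, with Cdx2 at 0 in DR and DR-AL, to 25.1, 6.05 and 3.78 CPM. These sums move across the hypothalamus libraries alongside Irs1, Ddit4, Txnip and Foxo1, and their part in those values was not tested. In hippocampus choroid plexus markers summed to 2893, 1771 and 2818 CPM and neuron markers to 7951, 7832 and 7287 CPM, and in liver the 9 liver markers with counts summed to 48967, 51574 and 53164 CPM. Single liver markers moved more than that sum. Serpina1e had 144553, 7668 and 108578 counts and Apoa1 249830, 276757 and 402179, while Fgb stayed at 79755, 77333 and 77325. Blood and immune markers in liver, 7 of 7 with counts, summed to 232, 148 and 178 CPM.

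The other genes of the pathways were counted from 5 lists that overlap. Their counts for DR against AL stand beside the shares of all genes called higher and lower there, which were 18.0% and 9.92% in liver, 35.2% and 10.4% in fat, 9.04% and 10.6% in colon, 4.33% and 2.72% in hypothalamus and 1.36% and 2.67% in hippocampus. Of 26 other genes between the insulin receptor and Akt, DR liver had 2 higher and 1 lower than AL, or 7.69% and 3.85% (median log2 0.03, all genes 0.08). Fat had 6 and 5 (23.1% and 19.2%), colon 1 and 1 (3.85% each), hypothalamus none and 1 (3.85%), and hippocampus neither. Pik3r1, the regulatory subunit of phosphatidylinositol 3-kinase, was 88.1 CPM in DR liver against 44.9 CPM in AL and 37.1 CPM in DR-AL liver (log2 0.97 and -0.28 against AL). Pdpk1, which phosphorylates Akt, went the other way there, at 27.2, 19.4 and 35.5 CPM in AL, DR and DR-AL. In fat Sh2b2, an adaptor of the receptor, was at 154.5 CPM in DR against 66.7 in AL, and Grb14, an inhibitor of the receptor, at 11.9 against 26.6. Irs4, the adaptor that is abundant in the hypothalamus, stood there at 264, 187 and 148 CPM in AL, DR and DR-AL, lower than AL in both (log2 -0.49 and -0.84). Trib1, a relative of Trib3, was higher in colon in DR (log2 0.46) and DR-AL (log2 0.88) than in AL. In DR-AL liver 3 genes of the list were higher and 8 lower than in AL (11.5% and 30.8%, against 15% and 15.8% of all genes), with a median log2 of -0.19 against a median of -0.02 for all genes whose mean count reached 10.

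Of 23 other FoxO factors and targets, DR liver had 6 higher and 8 lower (26.1% and 34.8%), and they moved far in both directions. Igfbp1, an insulin-repressed binding protein for IGFs, read 112, 25.8 and 247 CPM in AL, DR and DR-AL liver (log2 -2.12 and 1.14 against AL). Bcl6, a transcriptional repressor, read 16.6, 68.0 and 24.3 CPM in the same order. In DR colon none was higher and 8 of the 22 tested, or 36.4%, were lower, against 10.6% of all genes (median log2 -0.19, all genes 0.01). Among the lower were Bcl2l11, the death factor Bim, at log2 -1.05 and Pdk4, which turns off pyruvate dehydrogenase, at -0.97. In DR-AL colon Pdk4 was uncalled against AL (log2 0.09) and Bcl2l11 was at -0.50. In the brain Pdk4 (log2 0.49) and Klf15 (0.33) were higher in DR hypothalamus, and Foxo6, the FoxO factor of the brain, was higher in DR hippocampus (0.45), as was Bcl2l11 (0.48). In fat 5 were higher and 8 lower (21.7% and 34.8%), and the largest changes were of G6pc (log2 -5.75) and Igfbp1 (-3.65), liver genes that were lower in the fat libraries with little liver RNA.

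Of 42 other genes of mTORC1, its inputs and effectors, DR liver had 7 higher and 4 lower, or 16.7% and 9.52% (median log2 0.15, all genes 0.08). Fat had 11 and 6 (26.2% and 14.3%), colon 2 and 4 (4.76% and 9.52%), hypothalamus none and 1 (2.38%), and hippocampus neither. Sesn2, the other sestrin that senses leucine, was at 17.7, 8.50 and 7.88 CPM in AL, DR and DR-AL liver, and Flcn, which acts on the Rag GTPases, at 25.2, 45.2 and 18.3 CPM. The amino acid sensor Slc38a9 fell in DR colon (log2 -0.95), and Gatsl2 (also Castor2) was lower there at -0.84. Deptor, an inhibitor bound to mTOR, was lower in the hypothalamus in DR (log2 -0.34) and DR-AL (-0.62) than in AL. In fat Ddit4l, a relative of Ddit4, and Rragb were higher in DR by log2 2.27 and 2.15, from 68 and 27 counts in AL. In AL, DR and DR-AL fat Ddit4l read 2.59, 12.6 and 15.5 CPM and Rragb 1.03, 4.64 and 8.92 CPM. The testis markers share that order, and their part in these values was not tested. Against DR, DR-AL liver had 7 higher and 17 lower (16.7% and 40.5%, against 16.9% and 24.0% of all genes), with a median log2 of -0.18 (all genes -0.09).

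Of 22 other genes of ATF4 and the amino acid response, DR fat had 5 higher and 5 lower (22.7% each). DR-AL fat had 14 higher and 4 lower than DR fat (63.6% and 18.2%, against 38.3% and 13.3% of all genes; median log2 0.71, all genes 0.24), beside Trib3 and Ddit4. Cth, an enzyme of cysteine synthesis, was lower in DR fat (log2 -2.12) and Slc7a11, the cystine transporter, was higher (2.15, from 26 counts in AL). Cth read 100, 23.0 and 41.6 CPM in AL, DR and DR-AL fat, highest in the library with most liver RNA. Slc7a11 read 0.99, 4.47 and 17.2 CPM, an order that the testis markers share. The part of other tissue in the fat values of this list was not tested. In liver 4 were higher in DR, among them Vldlr (log2 2.34) and Ddit3, the factor CHOP (1.61), and 5 lower (18.2% and 22.7%). In colon Nupr1, a stress-response chromatin protein, read 208, 81.8 and 153 CPM in AL, DR and DR-AL, while Phgdh, the first enzyme of serine synthesis, was higher in DR (log2 1.09, on 191 against 71 counts). In the hypothalamus Nupr1 (log2 0.84) and Slc7a11 (0.36) were higher in DR, and in the hippocampus Slc7a11 was higher (0.48) and Ppp1r15a lower (-0.37).

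Of the 12 tested relatives and regulators of Txnip in liver (Mondo factors, arrestin-domain proteins, thioredoxins), 8 were higher and none lower in DR, while Txnip itself was lower. That is 66.7% higher, against 18.0% of all genes, at a median log2 of 0.59 (all genes 0.08). Arrdc2 read 14.9, 56.2 and 6.86 CPM in AL, DR and DR-AL liver, and Klf10, a glucose-responsive repressor, read 17.2, 48.9 and 35.0 CPM. In DR-AL against DR liver none was higher and 9 were lower (75.0%, against 24.0% of all genes; median log2 -0.74, all genes -0.09). In DR colon 1 of 12 was higher and 2 lower (8.33% and 16.7%, against 9.04% and 10.6% of all genes). The lower were Arrdc2 (log2 -0.92) and Arrdc3 (-0.73). In DR fat 6 of 13 were higher and 2 lower (46.2% and 15.4%, against 35.2% and 10.4% of all genes). Arrdc3 was among the lower in fat, at 193, 52.3 and 222 CPM in AL, DR and DR-AL, low in DR as Txnip was. Arrdc5 in fat had 1, 89 and 708 counts in the AL, DR and DR-AL libraries, an order that the testis markers share. In the brain Klf10 was higher in DR in hypothalamus (log2 0.41) and hippocampus (0.45), and Arrdc4, the nearest relative of Txnip in this list, was higher in hippocampus (0.32).

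**Figure D4:**
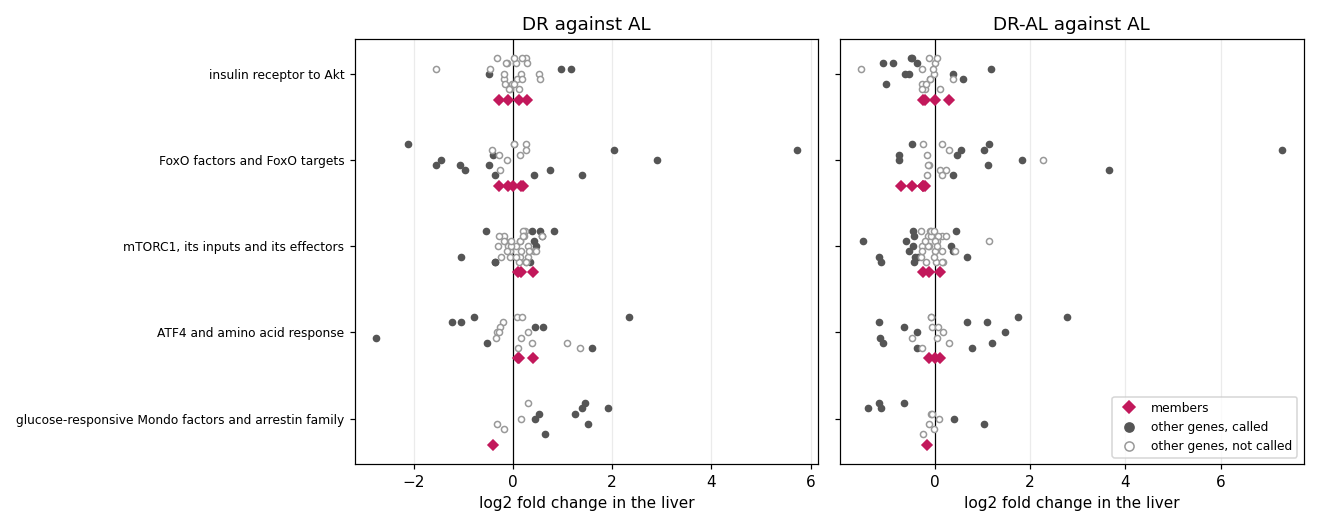
Log2 fold change in the liver (horizontal axis) of the genes of the 5 lists (vertical axis) in DR against AL (left) and DR-AL against AL (right). Diamonds are members, circles are other genes and filled circles were called. Members lie between log2 -0.71 and 0.41 in both panels, while Igfbp1 and Bcl6 of the FoxO list lie at -2.12 and 2.03 on the left.

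Over the 5 tissues, with tissue as a term and the quasi-likelihood test of edgeR, no member was called in any comparison. In DR against AL, 1 of 16381 genes was called (0.00610%), Scd1, which was named after its values were seen, and 588 genes had an unadjusted p under 0.05, while DESeq2 called 22. In DR-AL against AL edgeR called none (0.00%), with 751 genes at an unadjusted p under 0.05 and 22 called by DESeq2, and in DR-AL against DR it called Scd1 (0.00610%), with 616 and 17. The member with the lowest p for DR against AL was Eif4ebp1, at log2 -0.41 (SE 0.17) and lower in 4 of 5 tissues. Its edgeR adjusted p was 0.9999, and it ranged from 0.847 to 1 over the alternatives. Irs2 was at log2 -0.36 (SE 0.19), lower in 3 of 5 tissues, and at -0.13 (SE 0.13) without fat. Txnip in DR-AL against DR was at log2 0.32 (SE 0.17), higher in 5 of 5 tissues. Its edgeR adjusted p was 0.971, and it ranged from 0.894 to 0.99999 over the alternatives. All 5 tissues of a diet were from 1 set of mice, so they are not independent animals.

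**Figure D5:**
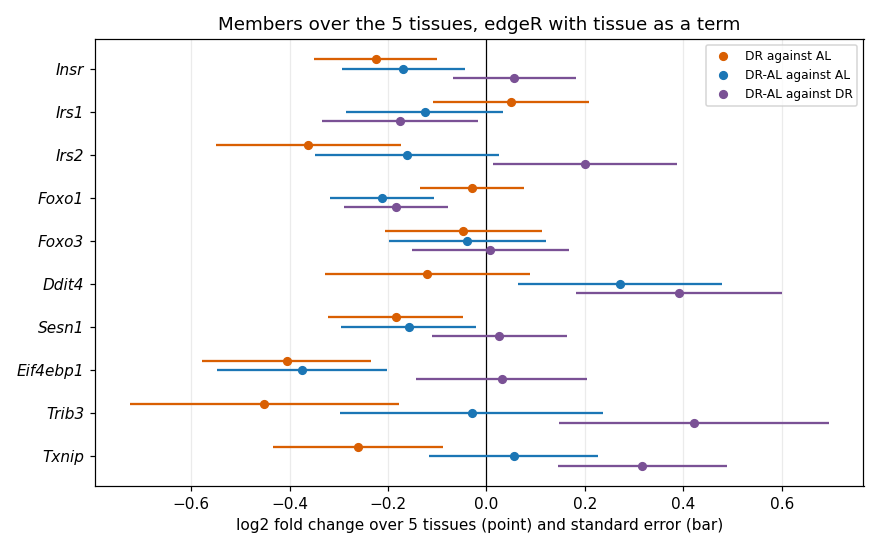
Log2 fold change over 5 tissues (horizontal axis; point) with its standard error (bar) for the 10 members (vertical axis) in the 3 comparisons, from edgeR with tissue as a term. None of the members passed the adjusted threshold.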

How the data were processed

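Total RNA of 5 tissues was pooled from 5 mice per diet, depleted of ribosomal RNA and sequenced stranded and paired-end. The authors aligned reads with Strand software to mm10, by the methods, removed duplicates and deposited raw counts and FPKM per locus. Their processing notes name mm9 and DESeq2, so the table's positions were not used, and coordinates are those of GENCODE M21 on GRCm38 (promoters from RefSeq, GRCm38.p6). The deposited counts were whole numbers without normalization. The deposited FPKM values were scaled by the authors per length and library. By the methods, each tissue was normalised to its AL group and quantified with DESeq, while the Z test used mapped read totals, and which scaling the FPKM columns hold is not stated. All 30 value columns were used.

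CPM were computed over named loci, which left out 0.258% to 1.39% of counts on unnamed loci. Depth was 21767088 to 40500130 counts per library (median 26554699), and intervals cover counting error only. Within a tissue, the Z test on square roots of counts over totals with Poisson variance and Benjamini-Hochberg adjustment was run on every named locus that had a count in the tissue, and a call also needed a difference of at least 25%. Log2 fold changes carry a pseudocount of 0.5 counts. Over tissues, edgeR 4.0.16 (R 4.3.3) fitted all 15 libraries with TMM, filterByExpr, tissue as a term and the quasi-likelihood test, and p-values there measure the spread between tissues.

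Members and lists were chosen with earlier results of these data known. The genes named beside the members are up to 2 per list and tissue with a mean of at least 100 counts, called in DR against AL, that had the largest changes there, and, for each member, the 2 genes most correlated with it over the 12 libraries outside fat. Within tissues the alternatives changed the scaling (size factors of DESeq, or totals that omit the 10 most abundant genes), the filter (a mean count of 10), the fold (2), the test (edgeR's exact test, the coefficient of variation set to 0.1 or the dispersion estimated), the values (FPKM, pseudocount 0.1 or 1) or omitted fat. Over tissues they were DESeq2 1.42.0, a fit without filter, a fit without tissue, and fits that each omit 1 tissue. FPKM centred on the median gene was added after seeing the data.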

Additional observations from a re-analysis of the deposited data

Results flagged for a closer look

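In DR against AL, Ddit4 was called higher in liver (log2 0.41) and lower in fat (log2 -0.70), a gap of 1.11 between the tissues. The liver call was lost with DESeq size factors (log2 0.32), and its value was 0.18 and 0.17 in FPKM and 0.21 in centred FPKM. In DR-AL against AL, Irs1 was called higher in hypothalamus (log2 0.33) and lower in fat (log2 -0.53), a gap of 0.86. Each tissue had 1 library per diet, so that neither difference was tested, and both involve the fat libraries whose male tract and liver markers differ.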

How the results depend on the processing

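Calls of members for DR against AL, DR-AL against AL and DR-AL against DR numbered 13, 14 and 15. The shares of all genes called within a tissue were computed for this setting, not under the changed scaling, fold, test or values. With a fold change of 2 they were 2, 0 and 2, with a coefficient of variation of 0.1 they were 7, 4 and 6, and with an estimated dispersion 0, 0 and 0. For DR against AL they were 22 in FPKM (pseudocount 0.1), 20 in FPKM centred on the median gene and 8 without fat, and for DR-AL against DR 8 without fat. Calls in the pathway lists (139, 176 and 180) became 44, 49 and 56 with a fold change of 2, 67, 87 and 102 with a coefficient of variation of 0.1, 3, 9 and 11 with an estimated dispersion, and 82, 99 and 111 without fat, and in FPKM 219 for DR against AL. In fat, FPKM turned Ddit4 in DR-AL against AL to -0.76 (pseudocount 1: -0.74), and in DR-AL against DR it turned Foxo3 to -0.42 (-0.35) and Txnip to -0.18 (-0.18). The median gene of fat moved there by -1.18 and -0.58, and in FPKM centred on it these values were 0.42, 0.16 and 0.40, so no called value turned. Set relative to the adipocyte marker sum, which was chosen after seeing the data, Insr (0.33) and Irs1 (0.20) in DR-AL against AL and Foxo1 (0.0225) in DR-AL against DR turned in fat. The cause of these was not tested. Over tissues, genes called were 8, 17 and 3 without the filter on low counts, 22, 22 and 17 with DESeq2, and 0 for DR against AL and for DR-AL against DR without the tissue term. Leaving out each tissue gave 1 to 1, 0 to 0 and 1 to 1. Of values within tissues under all settings but the adipocyte sum, 1136 kept their call or lack of one, 79 gained a call and 129 lost one. Called values that turned numbered 6, which are those in FPKM above. Uncalled values whose sign changed count as kept, such as Eif4ebp1 in liver for DR against AL (log2 0.11, and -0.09 in FPKM). Over tissues the tissue term compared diets within tissue. Within a tissue no paired analysis was possible because each diet has 1 library and the labels carry no replicate numbers, and no replicate could be left out.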

Other observations

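Over the 12 libraries outside fat, with the mean of each tissue removed, the 2 genes of 15137 whose log2 CPM moved most like each member were Aqp9 and Tm6sf1 for Insr (Pearson r 0.985 and 0.975), Lingo1 and Lekr1 for Irs1 (0.928 and 0.920), and Sh3glb1 and Xkr4 for Irs2 (0.939 and 0.912). For the FoxO factors they were Tcf3 and Gcgr for Foxo1 (0.974 and 0.958) and Col5a3 and Agap3 for Foxo3 (0.987 and 0.979). Dip2b and Gm1673 were nearest to Ddit4 (0.973 and 0.936), Cacna1a and Atg14 to Sesn1 (0.975 and 0.972), Etohd2 and 2810468N07Rik to Eif4ebp1 (0.944 and 0.922), and Tm4sf1 and Fap to Trib3 (0.965 and 0.933). Txnip had the lowest values, with a locus named for Serpina12 and Serpina9 (0.890) and Nacc2 (0.886). The points share library depth and pool within a tissue, and the nearest of so many genes over few libraries is a description only.

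Among the FoxO targets in liver, Cdkn1a, the cell cycle inhibitor p21, had 49, 22 and 617 counts in AL, DR and DR-AL, and Trim63, a muscle ubiquitin ligase, had 0, 24 and 81. Both were named after their values were seen.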
